A study of Mus musculus with 9 samples.

Results

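Chemokines and their receptors were followed in a mouse prostate cancer model measured on 9 Affymetrix Mouse Gene 2.0 ST arrays. The members were all genes with a probe set of a single symbol that is a numbered Cxcl, Ccl, Cxcr or Ccr gene, together with Pf4, Ppbp, Cx3cl1, Cx3cr1, Xcl1 and Xcr1. This gave 53 genes on 54 probe sets, 36 ligands and 17 receptors, of 22180 named genes in all. Another 33 probe sets carry several symbols that include such a gene, for example Ccl19 or Ccl21, and were not used because their signal cannot be given to a single gene.

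MYCCaP is a cell line from a prostate tumour of a mouse with a MYC transgene that is expressed in the prostate. As the parental group, MYCCaP cells kept in medium with the androgen dihydrotestosterone (DHT) were hybridised to 3 arrays, technical replicates of 1 sample. Against them stand 3 vehicle lines and 3 AZD1208 lines, named for what their host mice received; AZD1208 inhibits the PIM kinases. These 6 recurrent lines came from tumours that grew in castrated mice and were cultured without DHT. All groups therefore carry the MYC transgene. Growth in a mouse, castration and the medium without androgen all separate the recurrent lines from the parental sample and cannot be told apart. The labels call the lines biological replicates and do not tie them to individual mice.

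Chemokines are small secreted proteins that guide cells along a concentration gradient, and their receptors couple to inhibitory G proteins. CXC chemokines with the amino acids Glu-Leu-Arg before the first cysteine bind Cxcr2 and draw neutrophils, while the interferon-induced Cxcl9, Cxcl10 and Cxcl11 bind Cxcr3 on T cells. CC chemokines such as Ccl2 and Ccl5 draw monocytes and lymphocytes. In prostate tumours, epithelial cells are a known source of chemokines, and the receptors are found mainly on infiltrating leukocytes.

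Values are log2 intensities, so a difference of 1 is a 2-fold difference in signal. Array medians lay between 6.22 and 6.36. AZD1208 3 had the narrowest interquartile range, 2.87, and the lowest array quality weight, 0.34. Of the 53 members, 37 passed a filter that left out the 30% of genes with the lowest mean over the samples (below 5.81), and these 37 were tested. The 16 dimmer members were Cxcl3, Pf4, Ccl6, Ccl8, Ccl11, Ccl12, Ccl22, Ccl26, Ccr1, Ccr2, Ccr3, Ccr4, Ccr6, Ccr9, Cxcr6 and Xcr1. The arrays carry no detection calls, so no member was called present or absent. The labelled cell type was checked against a list of prostate epithelial markers, of which 7 of 10 had a value. Krt8, a luminal keratin, was at 9.19 in the parental sample and between 8.24 and 10.44 in the recurrent lines. Hoxb13, a prostate transcription factor, was at 8.86 and between 8.44 and 8.92. Krt18, Krt14 and Cdh1 were lower in all 6 lines than in the parental sample (log2 differences -0.23, -0.72 and -0.24, adjusted p = 1 each, limma; unadjusted p = 0.0161 for Krt14). Epcam was at 4.99 and between 4.51 and 5.06, and the prostate secretory gene Pbsn at 4.04 and between 3.64 and 4.36, all under the filter value.

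In the RefSeq annotation of assembly GRCm38.p6, 7 members lie next to each other on chromosome 5 in the order Cxcl5, Ppbp, Pf4, Cxcl3, Cxcl15, Cxcl1 and Cxcl2. On chromosome 11, Ccl2, Ccl7, Ccl11, Ccl12, Ccl8 and Ccl1 form a run of 6, and Ccl5, Ccl9, Ccl6, Ccl3 and Ccl4 a run of 5. RefSeq promoter windows of 300 bases (250 before to 50 after the start) were found for 39 member genes. No such window was found for Cxcl5. As described next, Cxcl15 had other high lines than Cxcl1 and Cxcl2, while Ppbp shared their 2 highest lines, vehicle 2 and AZD1208 2. The windows of 5 neighbours on chromosome 5 are shown. They run 5′ to 3′, in build GRCm38.p6, and capitals mark matches to the NF-kB consensus on either strand.
Cxcl1, chr5:90890995-90891294, plus strand: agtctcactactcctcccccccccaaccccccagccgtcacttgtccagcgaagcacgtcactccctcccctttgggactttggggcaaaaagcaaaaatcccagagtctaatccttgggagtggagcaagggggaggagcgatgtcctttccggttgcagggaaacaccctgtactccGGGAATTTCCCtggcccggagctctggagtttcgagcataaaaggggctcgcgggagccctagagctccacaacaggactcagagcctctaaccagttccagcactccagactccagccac
Cxcl2, chr5:90903649-90903948, plus strand: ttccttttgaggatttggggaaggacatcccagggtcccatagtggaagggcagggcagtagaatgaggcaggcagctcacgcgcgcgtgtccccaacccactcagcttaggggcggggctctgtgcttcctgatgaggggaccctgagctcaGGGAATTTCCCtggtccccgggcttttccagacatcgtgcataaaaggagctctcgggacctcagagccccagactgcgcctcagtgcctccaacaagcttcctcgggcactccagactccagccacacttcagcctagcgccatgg
Cxcl3, chr5:90785851-90786150, plus strand: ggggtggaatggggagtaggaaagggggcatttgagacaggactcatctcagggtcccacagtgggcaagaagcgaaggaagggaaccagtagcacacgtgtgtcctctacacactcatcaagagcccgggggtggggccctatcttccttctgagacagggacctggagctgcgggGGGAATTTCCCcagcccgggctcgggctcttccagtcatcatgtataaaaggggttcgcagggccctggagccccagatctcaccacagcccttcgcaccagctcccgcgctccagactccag
Cxcl15, chr5:90794284-90794583, plus strand: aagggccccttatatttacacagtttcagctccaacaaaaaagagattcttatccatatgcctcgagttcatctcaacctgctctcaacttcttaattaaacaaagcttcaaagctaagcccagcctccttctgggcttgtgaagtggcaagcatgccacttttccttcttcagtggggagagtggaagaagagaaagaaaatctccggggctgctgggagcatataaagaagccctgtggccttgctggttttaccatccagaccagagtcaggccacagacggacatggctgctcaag
Ppbp, chr5:90768268-90768567, plus strand: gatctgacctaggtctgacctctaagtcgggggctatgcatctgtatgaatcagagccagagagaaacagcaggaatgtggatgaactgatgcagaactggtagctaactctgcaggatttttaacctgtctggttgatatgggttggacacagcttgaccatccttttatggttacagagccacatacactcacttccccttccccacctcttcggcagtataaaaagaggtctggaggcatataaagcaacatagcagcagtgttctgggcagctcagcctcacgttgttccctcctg

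Cxcl1, Cxcl2 and Cxcl3 each held a palindromic stretch that matches the NF-kB consensus on both strands, so their 2 matches overlap. The first base of that stretch lay 71 bases upstream of the start in Cxcl1, 97 in Cxcl2 and 73 in Cxcl3. The windows of Cxcl15 and Ppbp held no match to the NF-kB consensus, and the TATA box letters TATAAA lay 27 bases upstream in Cxcl15, 30 and 8 bases upstream in Ppbp and 30 bases upstream in Cxcl3. An NF-kB match occurred in 11 of the 39 member genes (28.2%), against 9.55% of all genes with a window and 8.46% of all 32851 windows. The AP-1 letters TGANTCA occurred in 8 of 39 (20.5%, against 8.97% of genes), the STAT letters TTCNNNGAA in 3 of 39 (7.69%, against 9.55%) and TATAAA in 12 of 39 (30.8%, against 15.7%), each searched on both strands. A match describes the letters and not a bound site.

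Ppbp, which encodes platelet basic protein, the precursor of the Cxcr2 ligand also called Cxcl7, was lower in all recurrent lines. It was at 8.98, 8.91 and 9.02 on the parental arrays, at 6.42, 7.63 and 7.0 in vehicle lines 1, 2 and 3, and at 6.60, 7.35 and 7.14 in AZD1208 lines 1, 2 and 3. No recurrent line reached the parental values. The recurrent lines were at 7.02 ± 0.45 (SD, n = 6), 3.86-fold lower than the parental sample (log2 difference -1.95, SE 0.44), with an interval of -2.98 to -0.92. The call over all genes was not reached (limma over all genes tested, unadjusted p = 0.00269, adjusted p = 1). With the parental arrays counted as 3 samples, which treats technical spread as biological, Ppbp passed in the comparison of all recurrent lines (adjusted p = 0.014), of vehicle lines (adjusted p = 0.0381) and of AZD1208 lines (adjusted p = 0.0383). The vehicle lines at 7.02 ± 0.60 (SD, n = 3) and the AZD1208 lines at 7.03 ± 0.39 (SD, n = 3) differed by 0.01 (SE 0.33). Of the platelet and megakaryocyte markers, 2 of 6 were higher and 4 lower in the recurrent lines, and the log2 of their summed intensity was 10.22 in the parental sample, 9.44 to 10.49 in vehicle lines and 9.51 to 10.44 in AZD1208 lines, so the parental value lay inside the range of the lines. Itgb3 was the brightest of these markers and weighs most in that sum. It was at 9.35 in the parental sample and 7.46 to 9.91 in the lines (log2 difference -0.60, SE 0.90). Itga2b, the platelet integrin subunit, was at 6.82 in the parental sample and 6.69 to 7.16 in the lines. In RNA of whole cultures, fewer cells of a type and less RNA per cell cannot be told apart.

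Cxcl1, Cxcl2 and Cxcl5, neutrophil attractants that act through Cxcr2, were high in vehicle 2 and AZD1208 2 and near or below the parental level in most other lines. Cxcl5 was at 8.20, 8.18 and 8.30 on the parental arrays, at 7.13, 10.84 and 8.24 in vehicle lines 1, 2 and 3, and at 7.88, 10.58 and 8.69 in the AZD1208 lines. Vehicle 2 was thus 6.12-fold and AZD1208 2 was 5.11-fold above the parental mean, while vehicle 1 was at 0.467 of it. Cxcl2 was at 7.51, 7.66 and 7.71 on the parental arrays, at 7.39, 9.21 and 7.63 in the vehicle lines, and at 7.52, 9.40 and 7.97 in the AZD1208 lines. The 2 high lines stood 2.99-fold and 3.42-fold above the parental mean. Cxcl1 was at 7.28, 6.96 and 7.23 on the parental arrays, at 7.10, 8.85 and 7.26 in the vehicle lines, and at 7.02, 8.90 and 7.30 in the AZD1208 lines. Its 2 high lines stood 3.23-fold and 3.34-fold above the parental mean, and the other 4 lines lay between 7.02 and 7.30. The treatment groups overlapped completely for these genes, with AZD1208 minus vehicle differences of 0.31 (SE 1.01) for Cxcl5, 0.22 (SE 0.61) for Cxcl2 and 0.004 (SE 0.61) for Cxcl1. With array quality weights the difference was -0.63 for Cxcl1 and -0.46 for Cxcl2. Recurrent minus parental differences were 0.66 (SE 1.34), 0.56 (SE 0.80) and 0.58 (SE 0.81) in the same order. For Cxcl1 the last value was 0.30 without vehicle 2 and 0.29 without AZD1208 2, and for Cxcl2 it was 0.27 and 0.28.

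**Figure D1:**
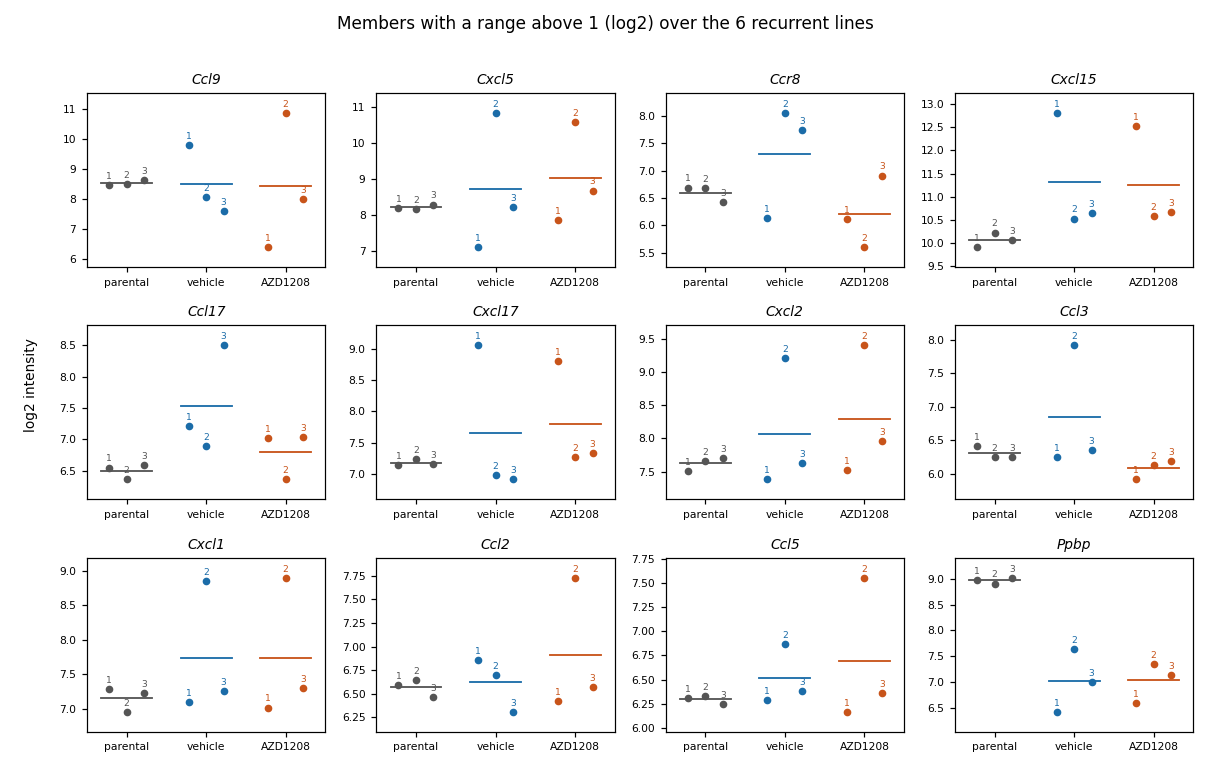
Log2 intensity of the 12 members whose values spanned more than 1 on the log2 scale over the 6 recurrent lines, with 1 point per array, the replicate number above it and a bar at the group mean; parental points are technical arrays, and each panel has its own vertical axis. Cxcl1, Cxcl2 and Cxcl5 are high in vehicle 2 and AZD1208 2, Cxcl15 and Cxcl17 in vehicle 1 and AZD1208 1, and Ppbp is below the parental arrays in all 6 lines.

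Cxcl15, known as lungkine, lies between Cxcl3 and Cxcl1 on chromosome 5 and followed a different order of lines. It was at 9.92, 10.23 and 10.07 on the parental arrays, at 12.81, 10.53 and 10.64 in the vehicle lines, and at 12.53, 10.58 and 10.67 in the AZD1208 lines. Vehicle 1 and AZD1208 1 stood 6.65-fold and 5.48-fold above the parental mean, and the other 4 lines between 1.37-fold and 1.51-fold. All 6 lines lay above all 3 parental arrays (log2 difference 1.22, SE 0.97, adjusted p = 1, limma). Cxcl3, the remaining member of this group and a close relative of Cxcl1 and Cxcl2, stayed dim at 3.36 to 3.87 on the parental arrays and 3.47 to 4.36 in the lines. Its highest line was vehicle 3 at 4.36, and the other lines, at 3.47 to 3.83, lay within the range of the parental arrays.

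The list of NF-kB and cytokine inputs names 24 genes, among them transcription factors, receptors and cytokines known to drive Cxcl1, Cxcl2 and Cxcl5, and 23 had a value. Of these, 11 were higher and 12 lower in recurrent lines than in the parental sample (median log2 difference -0.03, against -0.02 over all 22180 genes), and 0 of 20 tested passed (limma). By line, the median difference from the parental sample was 0.29 in AZD1208 2, 0.04 in vehicle 2 and between -0.13 and -0.01 in the other lines. The members of smallest p were Tnfrsf1a, a TNF receptor (-0.64, SE 0.29), Nfkbib (-0.48, SE 0.22), the interleukin-1 receptor Il1r1 (1.06, SE 0.54) and the adaptor Myd88 (-0.51, SE 0.36). Tnfaip3 and Nfkbia, feedback inhibitors that are themselves NF-kB targets, and Cd14, a co-receptor for bacterial lipopolysaccharide, are given here after their values were seen. Tnfaip3 was at 9.04 in the parental sample, at 7.33, 9.56 and 8.33 in vehicle lines 1, 2 and 3, and at 7.99, 10.36 and 8.95 in the AZD1208 lines. Nfkbia was at 10.36, at 10.36, 10.94 and 10.55, and at 10.31, 11.21 and 10.74. Cd14 was at 8.09, at 6.54, 8.81 and 7.72, and at 7.54, 8.86 and 8.03. These 3 genes were picked because AZD1208 2 and vehicle 2 were their highest lines, so that order supports nothing by itself. Over the whole list, counted after the values were seen, these lines were the 2 highest for 8 of 23 genes, against 6.63% of all genes and 8.11% of genes tested. The same held for 5 of 15 interferon inputs, a list described below, and for 1 of 24 genes of receptor signalling. In each of the other lists it held for 0 or 1 gene. The NF-kB list shared this order with the interferon list, and the part of NF-kB in the chemokine values was not tested. Other genes of the NF-kB list had another order: Rela, an NF-kB subunit, was highest in AZD1208 3, the kinase gene Ikbkb in vehicle 3 and Il1r1 in vehicle 1.

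Markers of leukocytes were set beside these lines. The neutrophil list had a median difference from the parental sample of -0.21 in vehicle 2 and -0.12 in AZD1208 2, and its log2 summed intensity was 8.81 in the parental sample, 8.62 to 8.79 in vehicle lines and 8.66 to 9.01 in AZD1208 lines. Of its 9 genes, 4 were higher and 5 lower in recurrent lines. Only 3 of the 9 passed the filter. In vehicle 2 and AZD1208 2, Csf3r was at 6.18 and 6.06 against 6.51 in the parental sample. Mpo was at 5.82 and 5.92 against 6.04, and Elane at 6.01 and 6.22 against 6.22. Among the dim ones, S100a8 was at 4.35 in vehicle 2 and 4.34 in AZD1208 2 against 4.55 in the parental sample. S100a9 was at 5.38 and 5.29 against 5.59, and Camp at 5.29 and 5.41 against 5.71. In contrast, Ly6g was at 4.93 and 4.99 against 4.78, and Ngp at 5.68 and 5.61 against 5.49. Retnlg was mixed, at 4.10 and 4.38 against 4.28. The macrophage list had 7 of 12 genes higher, and its log2 summed intensity was 10.49 in vehicle 2 and in AZD1208 2, 10.09 in the parental sample and 9.92 to 10.20 in the other lines. The median difference of that list from the parental sample was 0.20 in vehicle 2, 0.02 in AZD1208 2 and between -0.07 and 0.07 in the other lines. Cd14, picked above for its high values in vehicle 2 and AZD1208 2, belongs to that list. It was the brightest gene of the list in these lines and weighs most in the sum there. Cd68 was at 7.04 in the parental sample, at 8.08 in AZD1208 2 and at 7.11 to 7.57 in the other lines. Adgre1 was at 5.61, at 6.22, 6.54 and 5.81 in the vehicle lines and at 5.38, 5.72 and 5.80 in the AZD1208 lines. Next by p were Csf1r (-0.15, SE 0.21) and Fcgr1 (-0.14, SE 0.21), both lower in recurrent lines. Ptprc, the pan-leukocyte gene, was at 4.85 in the parental sample and at 4.49 to 5.12 in the lines, under the filter value throughout. Lyz2, the macrophage lysozyme, was at 5.18 in the parental sample, at 7.10, 6.97 and 4.80 in the vehicle lines and at 5.18, 6.42 and 4.74 in the AZD1208 lines. The fibroblast list was highest in AZD1208 2 (log2 summed intensity 13.18, against 9.90 in the parental sample and 10.49 to 11.52 in the other lines), with the matrix gene Postn at 12.72 there, at 7.86 to 10.53 in the other lines and at 5.36 in the parental sample. Fbln2 (1.17, SE 0.44) and Pdgfra (1.68, SE 0.66) were also above the parental sample in all 6 lines. The collagen gene Col1a1 was at 7.33 in AZD1208 2 and at 7.34 in the parental sample, and 5 of the 9 fibroblast genes were higher and 4 lower in recurrent lines. The part of the neutrophil, macrophage and fibroblast genes in these chemokine values was not tested.

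**Figure D2:**
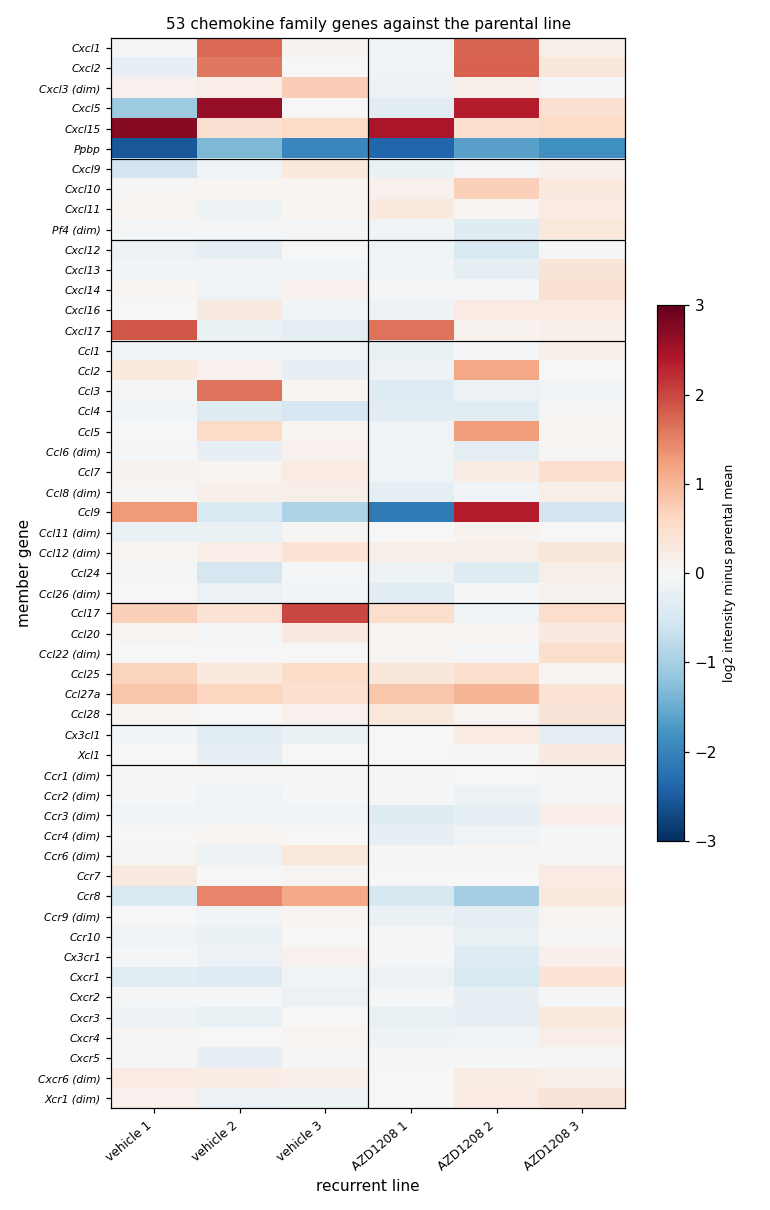
Difference in log2 intensity from the mean of the parental arrays for the 53 member genes (rows, grouped by role from Glu-Leu-Arg CXC ligands at the top to receptors at the bottom) in the 6 recurrent lines (columns), with red above and blue below the parental mean and dim genes marked. Ppbp is blue in all 6 columns, Ccl27a and Ccl25 are red in all 6, and most receptors stay close to 0.

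Among the other CXC ligands, Cxcl17, a mucosal chemokine, had the same high lines as Cxcl15. It was at 7.14, 7.24 and 7.17 on the parental arrays, at 9.05, 6.98 and 6.92 in the vehicle lines and at 8.80, 7.28 and 7.33 in the AZD1208 lines. Vehicle 1 and AZD1208 1 were 3.66-fold and 3.08-fold above the parental mean, and the other 4 lines between 0.835 and 1.11 of it. Ackr3, the scavenging receptor once named Cxcr7, which is not a member by symbol, was also highest in these lines, at 9.58 in vehicle 1 and 9.43 in AZD1208 1, against 8.45 in the parental sample and 8.11 to 8.72 in the other lines. Cxcl12, its ligand and that of Cxcr4, was at 6.27 to 6.51 on the parental arrays and at 5.95 to 6.42 in the lines (log2 difference -0.18, SE 0.22). Cxcl13, Cxcl14 and Cxcl16 spanned 0.67, 0.55 and 0.43 over the lines, and the first 2 were highest in AZD1208 3.

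The interferon-induced ligands spanned less than 1 over the lines. Cxcl10 was at 6.15, 6.39 and 6.39 on the parental arrays, at 6.34, 6.37 and 6.38 in the vehicle lines and at 6.43, 7.04 and 6.60 in the AZD1208 lines. The groups did not overlap, and the difference of 0.33 (SE 0.19) was 0.16 without AZD1208 2 and 0.17 with array quality weights. Against the parental sample Cxcl10 differed by 0.21 (SE 0.25), or 0.13 without AZD1208 2. Cxcl11 was at 6.08, 5.88 and 6.08 in vehicle lines and 6.32, 6.08 and 6.28 in AZD1208 lines, a difference of 0.22 (SE 0.15), with the lowest AZD1208 line equal to the highest vehicle lines at 2 decimals. Cxcl9 spanned 5.38 to 6.28 over the lines with both groups mixed, and Pf4, the platelet factor, 5.03 to 5.71. The list of interferon inputs had 11 of 15 measured genes higher in AZD1208 than in vehicle lines (median 0.10), against 47.5% of all genes (median -0.01). Against the parental sample, 9 of 15 were higher in recurrent lines (median 0.11), against 45.2% of all genes (median -0.02). In both comparisons 0 of 13 tested passed. By line, the median difference of the list from the parental sample was 0.31 in AZD1208 2 and between -0.07 and 0.14 in the other lines. The interferon inputs of smallest p against the parental sample were the receptor subunits Ifnar1 (0.53, SE 0.28) and Ifngr2 (0.97, SE 0.87), the effector Isg15 (-0.36, SE 0.26) and the kinase Jak1 (0.21, SE 0.19). Ifngr2 was at 11.08 in AZD1208 2, the line with the highest Cxcl10, and at 8.16 to 9.19 in the other lines. Irf1, Irf9 and Isg15 were also highest in AZD1208 2. In contrast, Ifit1 was highest in AZD1208 3, Irf7 in vehicle 3 and Ifit3 in vehicle 1. A link of these genes to Cxcl10 was not tested.

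Of the CC ligands, Ccl9, a macrophage and dendritic cell attractant, varied most over the lines of all members tested. It was at 8.47, 8.49 and 8.63 on the parental arrays, at 9.81, 8.07 and 7.60 in the vehicle lines and at 6.41, 10.89 and 7.99 in the AZD1208 lines. The highest line, AZD1208 2, and the lowest, AZD1208 1, belong to the same treatment group and stood 22.3-fold apart. The group means of 8.49 ± 1.16 and 8.43 ± 2.27 (SD, n = 3 each) and the parental mean of 8.53 were nearly equal despite this spread. Ccl6, its neighbour and close relative, was under the filter value in all arrays, at 5.24 to 5.69.

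Ccl2 and Ccl5, attractants of monocytes and T cells, shared their highest line with Ccl9. Ccl2 was at 6.59, 6.64 and 6.47 on the parental arrays, at 6.85, 6.70 and 6.31 in the vehicle lines and at 6.42, 7.73 and 6.57 in the AZD1208 lines. Ccl5 was at 6.31, 6.33 and 6.25, at 6.28, 6.87 and 6.38, and at 6.17, 7.55 and 6.37. AZD1208 2 was 2.23-fold above the parental mean for Ccl2 and 2.39-fold above it for Ccl5, and for Ccl5 vehicle 2 followed at 1.48-fold. Ccl7, which lies beside Ccl2 and acts on the same receptor, spanned 6.56 to 7.18 over the lines and did not follow it, with AZD1208 3 the highest.

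Ccl3 and Ccl17 each stood high in a single vehicle line. Ccl3, also known as macrophage inflammatory protein 1 alpha, was at 6.42, 6.25 and 6.25 on the parental arrays, at 6.25, 7.92 and 6.36 in the vehicle lines and at 5.92, 6.13 and 6.19 in the AZD1208 lines. The groups did not overlap, and the AZD1208 minus vehicle difference of -0.76 (SE 0.42) was -0.22 without vehicle 2. Its neighbour Ccl4 was at 6.41 in vehicle 2 and did not share that high value. Ccl17, a ligand of Ccr4, was at 6.55, 6.36 and 6.58 on the parental arrays, at 7.21, 6.90 and 8.50 in the vehicle lines and at 7.02, 6.36 and 7.03 in the AZD1208 lines. Its difference between treatments of -0.73 (SE 0.42) was -0.25 without vehicle 3. Against the parental sample it differed by 0.67 (SE 0.55), or 0.43 without vehicle 3.

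Ccl27a and Ccl25 were above the parental mean in all 6 lines, and neither passed the test. Ccl27a, the skin T cell attractant, was at 6.46, 6.40 and 6.11 on the parental arrays, at 7.16, 6.97 and 6.81 in the vehicle lines and at 7.15, 7.34 and 6.73 in the AZD1208 lines. Every line lay above every parental array, 1.63-fold higher on average (log2 difference 0.70, SE 0.27, unadjusted p = 0.0324, adjusted p = 1, limma). Its second probe set was dimmer, at 4.92 to 5.22 on the parental arrays and 4.87 to 5.52 in the lines, and the mean of both probe sets differed by 0.38. Further probe sets that list Ccl27a with near-identical genes were not used, and signal of those copies on its own probe sets cannot be told apart from its own. Ccl25, an attractant of thymocytes and gut T cells, was at 7.65, 7.89 and 7.98 on the parental arrays, at 8.52, 8.13 and 8.39 in the vehicle lines and at 8.17, 8.38 and 7.89 in the AZD1208 lines. All lines lay above the parental mean, but AZD1208 3 lay within the range of the parental arrays (log2 difference 0.41, SE 0.25).

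The other CC ligands tested, Ccl1, Ccl4, Ccl7, Ccl20, Ccl24 and Ccl28, spanned 0.35 to 0.68 over the lines. Ccl4 was at 6.70 to 6.87 on the parental arrays and at 6.28 to 6.80 in the lines (log2 difference -0.26, SE 0.24). Ccl28, a mucosal chemokine, was at 6.69, 6.61 and 6.77 in vehicle lines and at 6.95, 6.71 and 7.03 in AZD1208 lines, a difference of 0.21 (SE 0.15). Cx3cl1, the membrane-bound fractalkine, differed by 0.20 (SE 0.18) between treatments, or 0.07 without AZD1208 2 and 0.13 without vehicle 2. Xcl1, or lymphotactin, differed by 0.18 (SE 0.16), or 0.09 without vehicle 2 and 0.10 without AZD1208 3.

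Most of the receptors for these ligands spanned less than 1 over the lines, as did most genes tested. Of 17 receptors, 9 were tested, and 8 of these 9 spanned less than 1. Of all genes tested, 18.9% spanned more than 1. With quantile normalization Cxcr1 also spanned more than 1, at 1.03. Cxcr2, the receptor of Cxcl1, Cxcl2, Cxcl5 and Ppbp, was at 6.61, 6.62 and 6.83 on the parental arrays and at 6.44 to 6.63 in the lines. Cxcr1, a second receptor of this kind, was at 7.34 to 7.55 on the parental arrays and at 6.99 to 7.32 in 5 lines, with AZD1208 3 at 7.86. Cxcr4 was at 6.95 to 7.06 on the parental arrays and at 6.87 to 7.22 in the lines, Cxcr3 at 6.80 to 7.15 and 6.76 to 7.33, and Ccr7 at 6.98 to 7.08 and 7.03 to 7.30. Cx3cr1 spanned 0.53, Ccr10 0.26 and Cxcr5 0.22 over the lines. The receptors below the filter, Ccr1, Ccr2, Ccr3, Ccr4, Ccr6, Ccr9, Cxcr6 and Xcr1, spanned between 0.07 for Ccr1 and 0.56 for Ccr3. Several of these probe sets gave the same value to 3 decimals on many arrays, for example 5 of 9 arrays for Cxcr5 and 4 of 9 for Ccr1 and Ccr2.

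Ccr8, the receptor of Ccl1 and Ccl8 that marks regulatory and type 2 T cells, was the exception. It was at 6.69, 6.68 and 6.43 on the parental arrays, at 6.14, 8.06 and 7.74 in the vehicle lines and at 6.11, 5.61 and 6.91 in the AZD1208 lines. Vehicle 2 and vehicle 3 were 2.74-fold and 2.21-fold above the parental mean, vehicle 1 lay with the AZD1208 lines, and the groups overlapped. The AZD1208 minus vehicle difference was -1.10 (SE 0.54, unadjusted p = 0.0773, adjusted p = 1, limma), the smallest p of any member in that comparison, and it was -0.73 without vehicle 2 and -1.69 without vehicle 1. Its ligands spanned less: Ccl1 was at 5.91 to 6.32 and Ccl8 at 4.44 to 4.88 over the lines. The lymphocyte list, which would include T cells, had 4 of 8 genes higher and 4 lower in recurrent lines, with a log2 summed intensity of 9.01 in the parental sample, 8.78 to 9.08 in vehicle lines and 8.84 to 9.23 in AZD1208 lines. The median difference of this list from the parental sample was -0.11 in vehicle 2 and 0.09 in vehicle 3, the lines high in Ccr8. Of the T cell receptor chains, Cd3e was at 6.02 and 6.25 in these lines against 6.32 in the parental sample, and Cd3g at 5.0 and 5.17 against 4.94. The part of lymphocyte genes in the Ccr8 values was not tested.

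**Figure D3:**
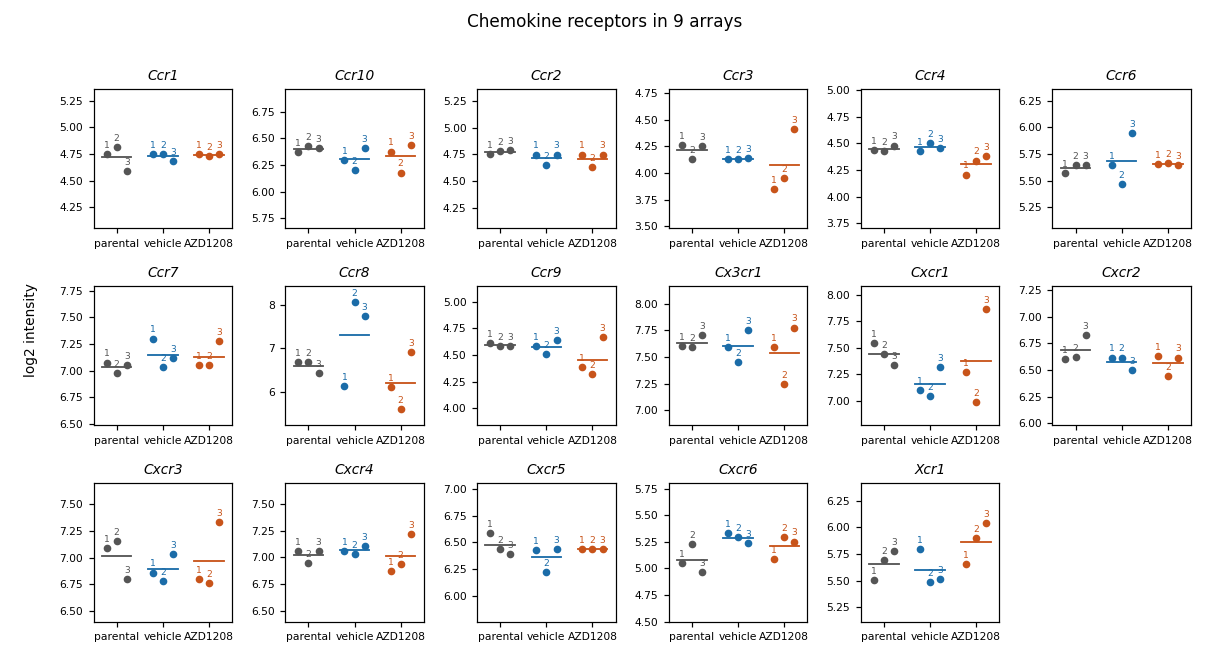
Log2 intensity of the 17 chemokine receptors on the 9 arrays, with 1 point per array, the replicate number above it and a bar at the group mean; each panel has its own vertical axis. Ccr8 is high in vehicle 2 and vehicle 3 (8.06 and 7.74), while Cxcr2 lies between 6.44 and 6.63 in all 6 lines.

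Against vehicle, AZD1208 lines showed no called difference in the family. Of the 37 members tested, 0 passed the adjusted threshold of 0.05 (limma), as did 0 of 15526 genes (0%). At an unadjusted p under 0.05 there were 0 members and 81 genes (0.522%). All AZD1208 lines were above all vehicle lines for 2 members, Cxcl10 and Cxcl11 (1.41% of genes tested and 1.92% of all genes), and all were below for 1, Ccl3 (1.98% of genes tested). Without the filter Ccr4 was also below, at 4.21 to 4.38 against 4.42 to 4.50 (2.29% of all genes). Of all 53 members, 33 were higher and 20 lower in AZD1208 lines, with a median difference of 0.03, and 47.5% of all genes were higher, with a median of -0.01. The intervals were wide for the most variable members, from -2.06 to 2.68 for Cxcl5. With the replicate number as a block, the SE of Cxcl5 was 0.22 in place of 1.01 and that of Cxcl2 was 0.15 in place of 0.61, and no member passed in that fit either.

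Against the parental sample, 0 of 37 members passed for all recurrent lines, for vehicle lines and for AZD1208 lines (limma, 0% of genes tested in each). These comparisons share the parental sample. At an unadjusted p under 0.05 there were 2 members for all recurrent lines, Ppbp and Ccl27a (2.76% of genes tested), 1 for vehicle lines, Ppbp (2.3%), and 2 for AZD1208 lines, Ppbp and Ccl27a (2.63%). All 6 recurrent lines lay above the parental mean for 6 of 53 members, Cxcl15, Ccl27a, Ccl25, Cxcl10, Ccl12 and Cxcr6 (10.2% of all genes), and below it for 4, Ppbp, Cxcr2, Cxcr5 and Ccr2 (9.88% of all genes). These shares, 11.3% and 7.55% of members, were near those of all genes. The 3 vehicle lines lay above the parental mean for 7 of 37 members tested (25.4% of genes tested) and below it for 9 (26.1%), and the AZD1208 lines above for 10 (17% of genes tested) and below for 5 (21.9%). Of all 53 members, 13 had every vehicle line below (26.1% of all genes). Without AZD1208 3, 12 of 53 members (22.6%) had all 5 remaining lines below the parental mean, against 21.4% of all genes for the same lines, and without vehicle 2, 12 had all 5 above, against 12.5%. AZD1208 3 was the highest of the 6 lines for 21 of 53 members, against 30.2% of all genes, and for 15 members when arrays were centred on their medians, against 21.9%. Of all 53 members, 30 were higher and 23 lower in recurrent lines, with a median difference of 0.03 against -0.02 over all genes.

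**Figure D4:**
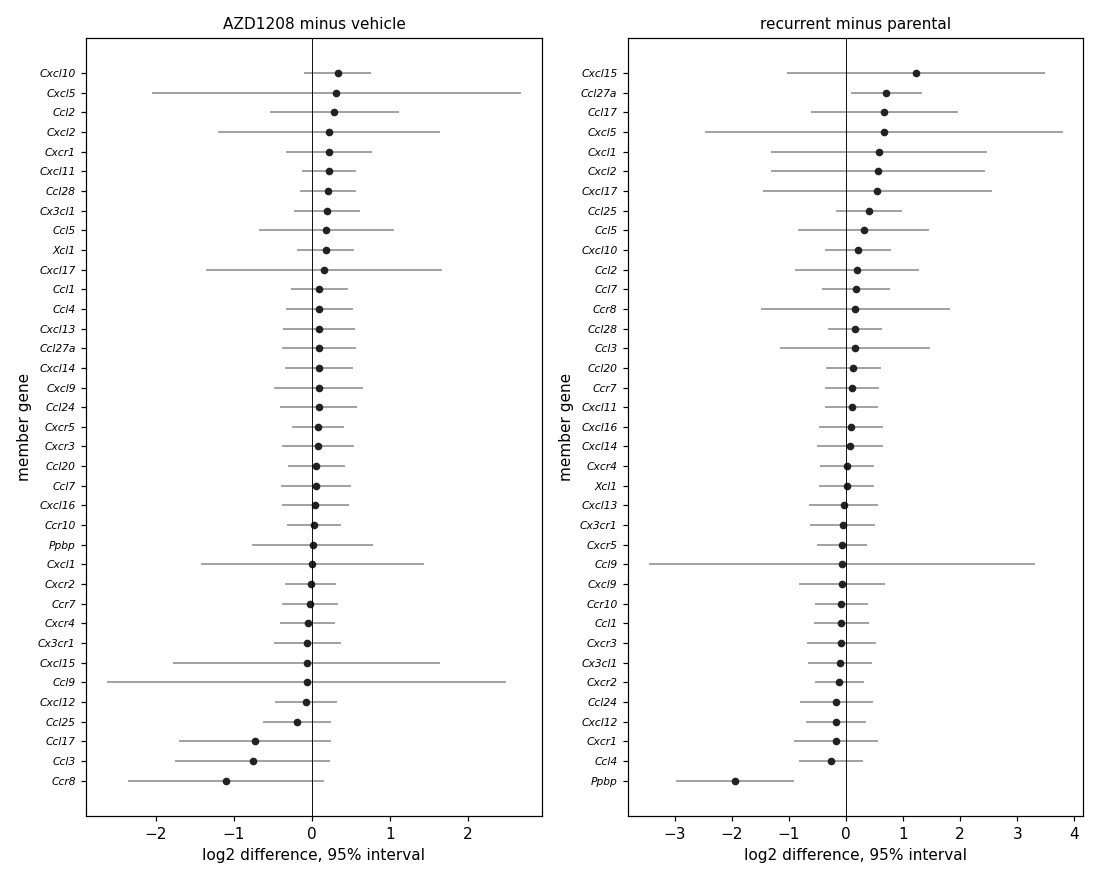
Log2 difference (point) with its 95% interval from the limma fit (line) for the 37 members tested, for AZD1208 minus vehicle lines on the left and recurrent lines minus the parental sample on the right, each sorted by the difference. Every interval on the left includes 0, and on the right those of Ppbp and Ccl27a do not.

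Line-to-line variation was then described for the whole family. The values spanned more than 1 on the log2 scale over the 6 recurrent lines for 12 of 53 members (22.6%), against 15% of all genes. All 12 were tested, which is 32.4% of the 37 members tested, against 18.9% of genes tested. The count was between 10 and 12 when each line was left out. Ppbp was the last of the 12 at 1.21, and Cxcl9 followed at 0.90. The median range over the lines was 0.55 for members and 0.58 for all genes, and the median technical SD was 0.10 for members and 0.09 for all genes. For 7 of the 12 variable members the 2 highest lines carried the same replicate number, a property noticed in these values, against 32.7% of all genes with such a range. Over the whole family it held for 22 of 53 members (28.6% of all genes) and for 17 of 37 tested (30.5% of genes tested). The 7 variable members were Cxcl1, Cxcl2, Cxcl5, Ccl5 and Ppbp for the lines numbered 2, and Cxcl15 and Cxcl17 for the lines numbered 1. The labels do not say what the number stands for.

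Genes that act with chemokines were read from lists of their own. Among 24 measured genes of receptor signalling, 6 were higher and 18 lower in recurrent lines (median -0.08), and 0 of 22 tested passed. The members of smallest p were Rgs19, a regulator that shortens G protein signals (-1.37, SE 0.26), Rgs2 of the same family (0.53, SE 0.23), the G protein subunit Gnai2 (-0.31, SE 0.23) and the receptor kinase Grk6 (-0.52, SE 0.41), each with all 6 lines on 1 side of the parental value. Among 12 measured genes for heparan sulphate and its carriers, which hold chemokines at the cell surface, 8 were higher and 4 lower (median 0.11), led by the polymerases Ext1 (0.74, SE 0.29) and Ext2 (0.58, SE 0.23), with Hs6st1 (0.38, SE 0.20) and the syndecan Sdc3 (1.21, SE 1.09), and 0 of 11 tested passed. Among 11 enzymes that trim or shed chemokines, 4 were higher and 7 lower (median -0.10) and 0 of 7 tested passed, with Adam10, which sheds Cx3cl1 and Cxcl16, at 0.59 (SE 0.65), Prtn3 at -0.17 (SE 0.29), Mmp2 at -0.13 (SE 0.21) and Mmp9 at -0.11 (SE 0.30). Among 7 atypical receptors 4 were higher and 3 lower (median 0.10), and 0 of 4 tested passed, with Ackr3 at 0.35 (SE 0.56), Ackr2 at 0.10 (SE 0.20), Gpr182 at 0.11 (SE 0.21) and Ccrl2 at -0.02 (SE 0.25). Of 8 endothelial markers, 0 were higher and 8 lower (median -0.06), and of 7 prostate epithelial markers 1 was higher and 6 lower (median -0.19).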

How the data were processed

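Total RNA of 9 arrays was analysed as deposited: log2 intensities, 1 per probe set and array, made by the authors with oligo, per the submitters' processing notes; the sources used here do not give its version, background correction or normalization. GEO's platform annotation gave the gene symbols, and a gene took its probe set of highest mean. The 3 parental arrays were averaged to 1 sample, whose spread is taken to be that of the recurrent lines. The fit of the 7 samples used limma 3.58.1 (lmFit, eBayes) under R 4.3.3 (group only, 4 residual and 3.36 prior degrees of freedom) on 15526 genes after the filter, two-sided, with Benjamini-Hochberg adjustment over all of them; intervals are 95%. P-values measure the spread between these lines, and the number of arrays limits precision. The procedure was tested on simulated data for AZD1208 against vehicle lines only, not for the comparisons with the parental sample.

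The members and gene lists were chosen with earlier results of these data known. Named are Cxcl1, Cxcl2 and Ppbp, and the 8 members of smallest p in each of AZD1208 against vehicle and recurrent against parental. Also named are the 10 members of largest range, every tested receptor, and up to 4 genes of smallest p per other list. Genes named from the cell type marker lists did not all follow this rule. Members described beyond these rules were chosen after their values were seen. Deviations from group means correlated across genes at 0.15, 0.12 and 0.53 for vehicle and AZD1208 lines numbered 1, 2 and 3; each is above 0.1, so the numbers were treated as pairing the lines in an alternative fit, although vehicle 1 and AZD1208 2 also correlated at 0.26 and no label states a pairing.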

Additional observations from a re-analysis of the deposited data

Results flagged for a closer look

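In 4 of the 37 members tested, 1 recurrent line stood apart from the other 5 by more than Dixon's criterion for 6 values allows, a nominal rate of about 1 in 20 groups. The same criterion was met by 9.3% of all genes tested and by 10.8% of the members tested, so the family was near the background. Ccl3 was at 7.92 in vehicle 2, against 5.92 to 6.36 in the others. Cxcl13 was at 7.08 and Cxcr1 at 7.86 in AZD1208 3, against 6.41 to 6.61 and 6.99 to 7.32. Cxcr5 was at 6.22 in vehicle 2, against 6.43 to 6.44, with 5 of the 9 arrays at an identical value and a range of 0.22 over the lines. No member had its vehicle lines all above and its AZD1208 lines all below the parental mean, or the reverse.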

How the results depend on the processing

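With the parental arrays counted as 3 samples, 156 genes passed for recurrent lines, 53 for vehicle lines and 41 for AZD1208 lines against the parental sample, and 1 member, Ppbp, in each. With array quality weights 1 gene passed for recurrent and 2 for AZD1208 lines against the parental sample, with 0 members. Leaving out single arrays gave 0 to 1 genes for AZD1208 lines against the parental sample and 0 to 0 for the other comparisons and for members. With the replicate block for the paired line numbers, 0 genes and 0 members passed between treatments and no call changed; unadjusted p was 0.0459 for Ccr8 and 0.0329 for Ccl17 (limma), and the SE of Cxcl1 was 0.15 with the block and 0.61 without. Between treatments, the sign turned for Cxcl1 and Ppbp with arrays centred on their medians (-0.0218 and -0.0159), for Cxcl1, Cxcl2 and Ppbp with array quality weights (-0.63, -0.46 and -0.43), and for these 3 when single lines were left out (-0.57 to 0.56, -0.33 to 0.79 and -0.29 to 0.32). The count of variable members was 13 with quantile normalization, which added the receptor Cxcr1, and 12 with centring. No other difference recomputed turned its sign under the alternatives run (the 8 members of smallest p in each of those comparisons, with Cxcl1, Cxcl2 and Ppbp). The causes were not tested.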
